A study of Mus musculus with 8 samples.

Results

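The genes described here are 9 mouse genes that carry energy-rich phosphate between the mitochondria and the sites of ATP use, namely the creatine kinases Ckm, Ckb and Ckmt2, the adenine nucleotide translocases Slc25a4 and Slc25a5, the voltage-dependent anion channels Vdac1, Vdac2 and Vdac3, and the adenylate kinase Ak1. They were chosen by name and role and make up 9 of the 25929 genes listed for 8 RNA-sequencing libraries. All 9 were found under a single Ensembl identifier each and all passed the filter on low values, which kept 14442 genes.

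Mitochondria make ATP inside the inner membrane, and the translocases exchange it there for ADP. The channels of the VDAC family let these nucleotides through the outer membrane. Creatine kinase of the mitochondrial intermembrane space (Ckmt2) passes the phosphate to creatine, and the cytosolic dimers built from Ckm and Ckb return it to ADP at the myofibrils and ion pumps, so that phosphocreatine acts as a buffer and shuttle in a heart with a high and changing ATP demand. Adenylate kinase regains ATP from a pair of ADP molecules. A fall of creatine kinase and of the phosphocreatine pool is a well-known feature of failing hearts.

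The 8 libraries came from hearts of wild-type (WT) mice, labelled as strain C57BL/6, and of transgenic littermates, labelled as strain Fat-1, which carry fat-1 of Caenorhabditis elegans, a desaturase that mammals lack and that turns n-6 into n-3 polyunsaturated fatty acids. At 3 months of age the mice underwent transverse aortic constriction (TAC), a suture around the aorta that puts the left ventricle under pressure overload, or a sham operation that opened the chest without constriction. Each genotype had 2 TAC and 2 sham libraries, called independent samples in the labels, and names such as WT-TAC1 or Fat1-Sham2 give genotype, surgery and number. The labels give ventricular tissue and the methods whole hearts as the source of the RNA, and mRNA of the transgene was not analysed here. With 2 libraries in a group, p-values measure the spread between these samples.

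Values are FPKM, fragments per kilobase of transcript, scaled to the depth of the library. Each gene's values resolved into whole fragments once multiplied by 1 length per gene, which gave depths between 14163994 fragments in WT-Sham1 and 21218331 in WT-Sham2. Between 673 fragments, for Ckb in WT-Sham1, and 110091 fragments, for Slc25a4 in Fat1-Sham2, lay behind each value of the 9 genes, so that the spread between libraries and not the counting limited the precision. For 90.0% of the listed genes the length was the mean of the annotated transcripts, and a ranking of levels between genes depends on that choice. Together the 9 genes took 1.04%, 0.940%, 0.505%, 0.814%, 0.954%, 1.07%, 0.989% and 0.973% of the fragments of WT-Sham1, WT-Sham2, WT-TAC1, WT-TAC2, Fat1-Sham1, Fat1-Sham2, Fat1-TAC1 and Fat1-TAC2. The share was lowest in WT-TAC1 and next lowest in WT-TAC2.

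One library stood apart before any comparison was made. In WT-TAC1 the 6 thymocyte markers summed to 1184 FPKM, with Rag1, the recombinase of immature lymphocytes, at 252 FPKM, whereas the sum was at most 1.90 FPKM in the other libraries and Rag1 was listed at 0 in 6 of them. The 9 fast skeletal muscle markers found summed to 196 FPKM in WT-TAC1, led by the light chain Mylpf at 65.4 FPKM, and to at most 12.2 FPKM elsewhere, and Myh4, a heavy chain of fast muscle, was at 4.47 FPKM in WT-TAC1 and at 0 or 0.0277 FPKM in the rest. The 9 lung and airway markers summed to 1508 FPKM in WT-TAC1, 3756 FPKM in WT-TAC2, 80.6 FPKM in Fat1-Sham1 and at most 0.865 FPKM in the others, with the airway secretory gene Bpifa1 at the highest mean over the 8 libraries. The 11 cardiomyocyte markers were found in every library and summed to 26599.8 FPKM in WT-TAC1 and to between 48795 and 64367 FPKM in the other 7. Over these 11 genes WT-TAC1 had a scaling factor of 0.546, against 0.982 to 1.23 in the other 7 libraries. Fewer cardiomyocytes in a sample and less RNA per cell cannot be told apart in these bulk libraries, so the log2 fold changes of named genes that were called in a comparison with WT-TAC1 are given below with and without it.

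Other markers also differed between libraries, and the gene given for each list below is the one with the highest mean over the 8 libraries, which for some lists is not the highest in each library. The 5 atrial markers (light chain Myl7) summed to between 1031 and 3801 FPKM in both WT-Sham libraries, both WT-TAC libraries and Fat1-Sham1 and to between 25.8 and 52.8 FPKM in Fat1-Sham2 and both Fat1-TAC libraries. The 4 B and plasma cell markers (Ighm) were at 384, 212 and 209 FPKM in WT-TAC1, WT-TAC2 and Fat1-TAC2 and at most at 9.38 FPKM elsewhere. The 6 fibroblast markers (Dcn) summed to 987, 1023 and 1014 FPKM in WT-Sham2, WT-TAC1 and WT-TAC2 and to between 548 and 617 FPKM in the rest, and the 5 macrophage markers (Lyz2) to 509 and 394 FPKM in WT-TAC1 and WT-TAC2 and to between 230.2 and 322 FPKM in the rest. The 6 white adipocyte markers (Fabp4) summed to 836 and 1160 FPKM in the WT-TAC libraries and at most to 502 FPKM elsewhere, and the 3 brown adipocyte markers (Cidea) ranged from 19.1 FPKM in Fat1-TAC2 to 219 FPKM in WT-TAC2. The 5 endothelial markers (Cdh5) ranged from 239.6 FPKM in WT-TAC1 to 371 FPKM in Fat1-TAC1, the 5 smooth muscle markers (Acta2) from 119.0 FPKM in WT-Sham1 to 368 FPKM in WT-TAC2, the 5 erythroid markers (Hbb-bs) from 4239.6 FPKM in Fat1-TAC1 to 10580.5 FPKM in WT-Sham1, and the 5 nerve and glia markers (Uchl1) from 11.4 FPKM in Fat1-Sham2 to 48.8 FPKM in WT-TAC2. The part of these cell types in the results on the 9 genes was not tested.

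Among the 9 genes Slc25a4, the translocase isoform of heart and skeletal muscle, had the highest level per length, with a mean of 2973 FPKM over the 8 libraries and rank 20 of all listed genes. It was followed by Ckmt2 at 948 FPKM, Vdac1 at 802 FPKM, Ckm at 488 FPKM, Ak1 at 393 FPKM, Vdac2 at 351 FPKM, Slc25a5 at 241 FPKM, Vdac3 at 110.4 FPKM and Ckb at 39.7 FPKM. Slc25a4 lay above Ckmt2, Slc25a5 above Vdac3 and Vdac3 above Ckb without overlap of their ranges over the libraries. The ranges of the other neighbours in this order overlapped. Even so, Vdac1 lay above Ckm and Ckm above Ak1 in 8 of 8 libraries, whereas Ckmt2 lay above Vdac1, Ak1 above Vdac2 and Vdac2 above Slc25a5 in 7 of 8, and in each of these 3 pairs WT-TAC1 was the exception.

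**Figure D1:**
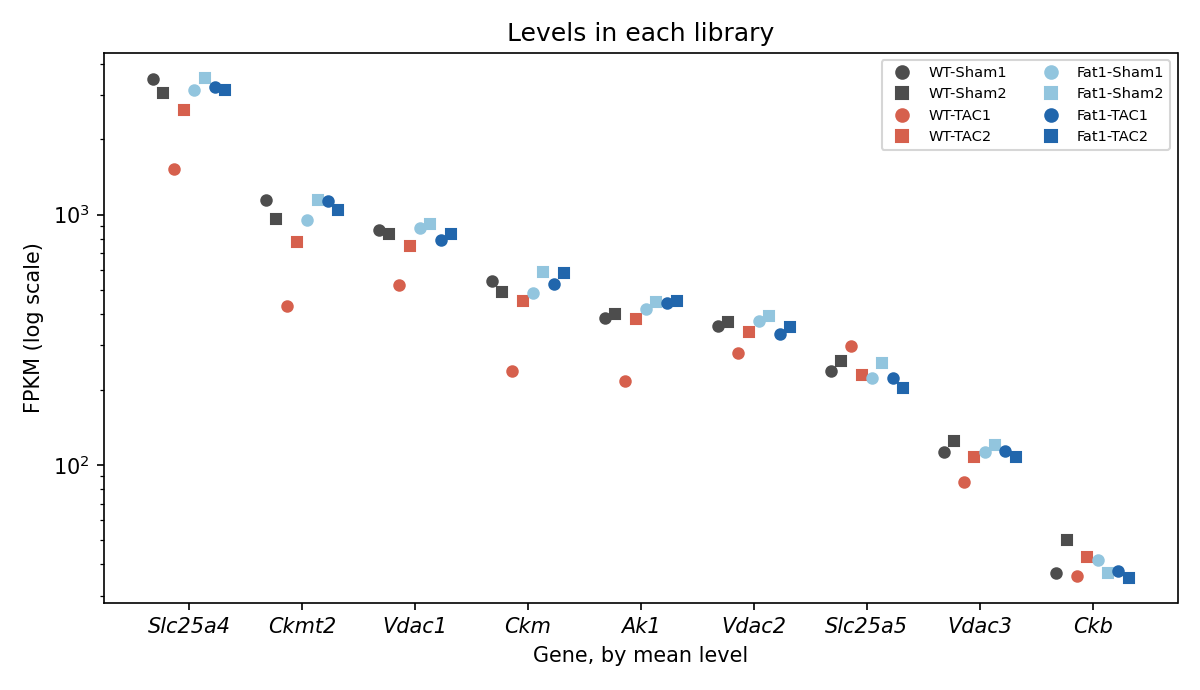
FPKM of the 9 genes in each of the 8 libraries, on a log scale, with genes ordered by their mean level, colours for the 4 groups, circles for library 1 and squares for library 2. WT-TAC1 is the lowest library for 7 genes and the highest for Slc25a5 at 298 FPKM.

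Sequences before the RefSeq transcription starts were held for 7 of the 9 genes and 11 starts, on build GRCm38.p6, and 4 sets of letters were searched on both strands from 250 bases before to 50 bases after each start. They were the estrogen-related receptor element TCAAGGTCA, its core AAGGTCA, which lies inside it, the MEF2 element, and the GC box GGGCGG. The full receptor element was in 0.423% and the MEF2 element in 0.110% of 32851 promoters and in none of the 11 starts here. The core AAGGTCA was in 4.72% of all promoters and in 2 of the 11, at 1 of the 4 starts of Ak1 and 1 of the 2 starts of Vdac1. The GC box was in 35.7% of all promoters and in 4 of the 11, those of Slc25a4, Slc25a5, Ckmt2 and 1 start of Vdac1. A TATAA run on the gene's strand within 50 bases before the start, looked for after the promoters had been seen, was in 4.93% of all promoters and in 2 of the 11, those of the cytosolic isoforms Ckm and Ckb, 29 and 28 bases before the start. Outside that window, TATAA also lay within the 50 bases after the start of Slc25a4, of Slc25a5 and of 1 start of Ak1. Which genes hold the run therefore depends on the start used.

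The 100 bases before the start are shown for both cytosolic creatine kinases, the mitochondrial one and the minor translocase, because the isoforms are compared below, with TATAA runs and GC boxes on either strand in capitals. Those of Ckm lie at chr7:19410994-19411093 on the plus strand, those of Ckb at chr12:111672339-111672438 on the minus strand, those of Ckmt2 at chr13:91876886-91876985 on the minus strand and those of Slc25a5 at chrX:36795497-36795596 on the plus strand. These matches are letters in a window and were not tested as sites.
Ckm: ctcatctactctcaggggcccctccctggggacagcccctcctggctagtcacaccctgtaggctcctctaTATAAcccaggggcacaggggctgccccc
Ckb: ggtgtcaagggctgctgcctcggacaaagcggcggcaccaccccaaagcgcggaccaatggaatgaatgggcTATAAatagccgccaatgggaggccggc
Ckmt2: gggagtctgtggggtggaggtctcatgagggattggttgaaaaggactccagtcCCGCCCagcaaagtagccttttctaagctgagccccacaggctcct
Slc25a5: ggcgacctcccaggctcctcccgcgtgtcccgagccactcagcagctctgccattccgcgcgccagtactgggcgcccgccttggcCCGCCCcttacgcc

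Ckm, the muscle creatine kinase (ENSMUSG00000030399, chromosome 7, 19404776 to 19422841 on GRCm38), was at 541 and 489.7 FPKM in the WT-Sham libraries and at 237 and 450.3 FPKM in WT-TAC1 and WT-TAC2. It was at 487 and 588 FPKM in the Fat1-Sham and at 528 and 584 FPKM in the Fat1-TAC libraries. Both WT-TAC libraries lay below all 6 others, with WT-TAC1 far below WT-TAC2. The group means were 515 ± 36.4 FPKM in WT-Sham, 344 ± 151 FPKM in WT-TAC, 538 ± 71.4 FPKM in Fat1-Sham and 556 ± 39.7 FPKM in Fat1-TAC (SD, n = 2).

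Ckmt2, the mitochondrial creatine kinase of striated muscle (ENSMUSG00000021622, chromosome 13, 91853387 to 91876885), was at 1145 and 958 FPKM in the WT-Sham and at 431 and 774 FPKM in the WT-TAC libraries. The Fat1-Sham libraries had 952 and 1140.1 FPKM and the Fat1-TAC libraries 1138 and 1046 FPKM. As for Ckm, both WT-TAC libraries were below all others, and the other 3 groups overlapped. The group means were 1052 ± 132 FPKM in WT-Sham, 602 ± 243 FPKM in WT-TAC, 1046 ± 133 FPKM in Fat1-Sham and 1092 ± 65.5 FPKM in Fat1-TAC (SD, n = 2).

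Ckb, the brain-type cytosolic isoform (ENSMUSG00000001270, chromosome 12, 111669361 to 111672338), was at 37.0 and 50.1 FPKM in WT-Sham, 35.8 and 42.9 FPKM in WT-TAC, 41.5 and 37.1 FPKM in Fat1-Sham and 37.5 and 35.4 FPKM in Fat1-TAC. Here WT-Sham2 was the highest library and Fat1-TAC2 the lowest, and WT-TAC overlapped with each of the other groups. Unlike for Ckm, WT-TAC1 was not the lowest library.

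Slc25a4 (ENSMUSG00000031633, chromosome 8, 46206797 to 46211284) was at 3486 and 3074 FPKM in WT-Sham, 1526 and 2629.9 FPKM in WT-TAC, 3162 and 3519 FPKM in Fat1-Sham and 3241 and 3144 FPKM in Fat1-TAC. Both WT-TAC libraries lay below all 6 others. Slc25a5, the translocase isoform of dividing and non-muscle cells (ENSMUSG00000016319, chromosome X, 36795651 to 36798807), was at 238 and 260.2 FPKM in WT-Sham, 298 and 229 FPKM in WT-TAC, 223 and 255 FPKM in Fat1-Sham and 223 and 203 FPKM in Fat1-TAC. It was the only one of the 9 genes with its highest value in WT-TAC1, and WT-TAC2 lay within the range of the sham libraries.

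Vdac1, the most abundant of the 3 outer membrane channels (ENSMUSG00000020402, chromosome 11, 52360860 to 52389397), was at 867 and 836 FPKM in WT-Sham, 524 and 750.3 FPKM in WT-TAC, 887 and 921 FPKM in Fat1-Sham and 792 and 840.3 FPKM in Fat1-TAC. Vdac2 (ENSMUSG00000021771, chromosome 14, 21825238 to 21845879), the channel isoform known for holding the apoptosis effector BAK, was at 359 and 374 FPKM, 279 and 340.5 FPKM, 377 and 392 FPKM, and 334 and 355 FPKM in the same groups. Vdac3 (ENSMUSG00000008892, chromosome 8, 22577075 to 22593813) was at 113 and 125 FPKM, 85.2 and 107 FPKM, 112 and 119.7 FPKM, and 113 and 108 FPKM. For all 3 channels WT-TAC1 was the lowest library, but WT-TAC2 was the next lowest only for Vdac1 and Vdac3, and for Vdac2 it lay above Fat1-TAC1.

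Ak1, the cytosolic adenylate kinase of muscle (ENSMUSG00000026817, chromosome 2, 32621758 to 32635058), was at 386 and 401 FPKM in WT-Sham, 216 and 381 FPKM in WT-TAC, 418 and 448 FPKM in Fat1-Sham and 442 and 451 FPKM in Fat1-TAC. WT-TAC2 lay just below the lower WT-Sham library, and all 4 fat-1 libraries were above all 4 WT libraries. The share of all tested genes that separate in this way was not counted. After sham the genotypes differed for Ak1 by a log2 fold change of 0.14 (unadjusted p = 0.608, limma).

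Some of these values can hold fragments of other genes. Of the stretches of 50 bases in the annotated transcripts, 33.8% of those of Slc25a5 recurred in 9 pseudogenes, 12.8% of those of Vdac3 in 3 and 9.98% of those of Ckb in 3, against 4.06% for Vdac2, 1.41% for Vdac1 and 0% for Ckm, Ckmt2, Slc25a4 and Ak1. The listed pseudogenes were at 3.85 FPKM or less with the exception of Vdac3-ps1, which shared 11.8% of the stretches of Vdac3. It was at 47.9 FPKM in WT-TAC1 and between 58.3 and 74.3 FPKM in the other libraries, and the levels of Vdac3, Slc25a5 and Ckb are uncertain to the extent that such fragments were split. An antisense gene, A930016O22Rik, covers 15.5% of the exonic bases of Ckm and was between 0.689 and 2.79 FPKM, and 1700119I11Rik covers 5.65% of those of Ckmt2 at 3.24 to 8.94 FPKM. The library kit named in the methods does not mark the strand, so that fragments of such pairs cannot be told apart.

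The comparison of WT-TAC with WT-Sham asks how pressure overload changed these genes in wild-type hearts. Means were lower in WT-TAC for 8 of the 9 genes in FPKM, for 9 after median-of-ratios scaling and for 3 after scaling to the cardiomyocyte markers, and these 3 were Ckmt2, Slc25a4 and Ckm. In FPKM, 7 of the 9 genes had both WT-TAC libraries below both WT-Sham libraries. The exceptions were Ckb and Slc25a5. In all tested genes such ranges without overlap were found in 7.09% with WT-TAC lower and in 52.5% with WT-TAC higher. By the adjusted cutoff, a p under 0.1 after Benjamini-Hochberg correction (limma) together with a fold over 1.5, none of the 9 genes was called, where the background was 0.921% of genes called higher and 0.0138% called lower. At an unadjusted p under 0.05 and the same fold, the cutoff that the study used for mitochondrial genes, 2 of the 9 were called lower, Ckmt2 and Slc25a4, and none was called higher, against a background of 1.11% called lower and 22.7% called higher. Of the 11 cardiomyocyte markers, 10 had lower means in FPKM, at a median log2 fold change of -0.53, and none was called by that cutoff.

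Ckmt2 differed by -0.86 (log2 fold change on the scale of log2(FPKM + 1), SE 0.29, unadjusted p = 0.0205, limma adjusted p = 0.175), Slc25a4 by -0.71 (SE 0.30, unadjusted p = 0.0475, limma adjusted p = 0.181) and Ckm by -0.65 (SE 0.29, unadjusted p = 0.0607, limma adjusted p = 0.187). The log2 fold changes of the other 6 were -0.45 for Ak1, -0.44 for Vdac1, -0.31 for Vdac3, -0.25 for Vdac2, -0.13 for Ckb and 0.07 for Slc25a5. The median over the 9 genes was -0.44, whereas the median over all tested genes was 0.39, and relative to that shift Ckmt2 was at -1.25, Slc25a4 at -1.10 and Ckm at -1.04. Under median-of-ratios scaling, which takes up this shift, the log2 fold changes were -1.34 for Ckmt2, -1.19 for Slc25a4 and -1.13 for Ckm. There 7 of the 9 genes passed the unadjusted cutoff, but Slc25a4 did not (unadjusted p = 0.0501, limma). The unadjusted calls over all genes changed from 3275 higher and 160 lower to 1041 higher and 1099 lower. Under quantile normalization the split was 737 higher and 1102 lower.

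Much of these differences came from 1 library. Without WT-TAC1, with WT-TAC2 as the lone library of its group and assumed to vary like the others, no gene of the 9 was called by either rule, and the log2 fold changes were -0.44 for Ckmt2 (unadjusted p = 0.0371, limma), -0.32 for Slc25a4, -0.19 for Ckm, -0.18 for Vdac1 and -0.04 for Ak1. Without WT-TAC2 they were -1.28 for Ckmt2, -1.10 for Slc25a4 and -1.11 for Ckm. Without WT-Sham1 none was called either, with -0.73 for Ckmt2 and -0.62 for Slc25a4, and without any 1 of the remaining 5 libraries Ckmt2 was called and Slc25a4 was not. When the FPKM values were scaled to the 11 cardiomyocyte markers, the log2 fold changes were -0.38 for Ckmt2 (unadjusted p = 0.0418, limma), -0.23 for Slc25a4, -0.18 for Ckm and 0.02 for Ak1, none of the 9 was called, and 6 of the 9 were higher in WT-TAC. Ckmt2, Slc25a4 and Ckm kept their direction in all settings tried. Their range was -1.34 to -0.38 for Ckmt2, -1.19 to -0.21 for Slc25a4 and -1.13 to -0.18 for Ckm.

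The scaling to cardiomyocyte markers changed the order of the libraries. Scaled Ckm was 434 and 446 in WT-TAC1 and WT-TAC2 against 498 and 499 in the WT-Sham libraries, and scaled Ckmt2 was 788 and 766 against 1055 and 976. For these the WT-TAC libraries came close to each other and stayed below both WT-Sham libraries. Scaled Slc25a5 was 546 and 226 in the WT-TAC libraries against 219 and 265 in WT-Sham, and scaled Vdac2 was 511 and 337 against 331 and 381, so that WT-TAC1 remained the highest library for Slc25a5 and became the highest for Vdac2. It also became the highest for Vdac1 at 959, Vdac3 at 156 and Ckb at 65.5.

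**Figure D2:**
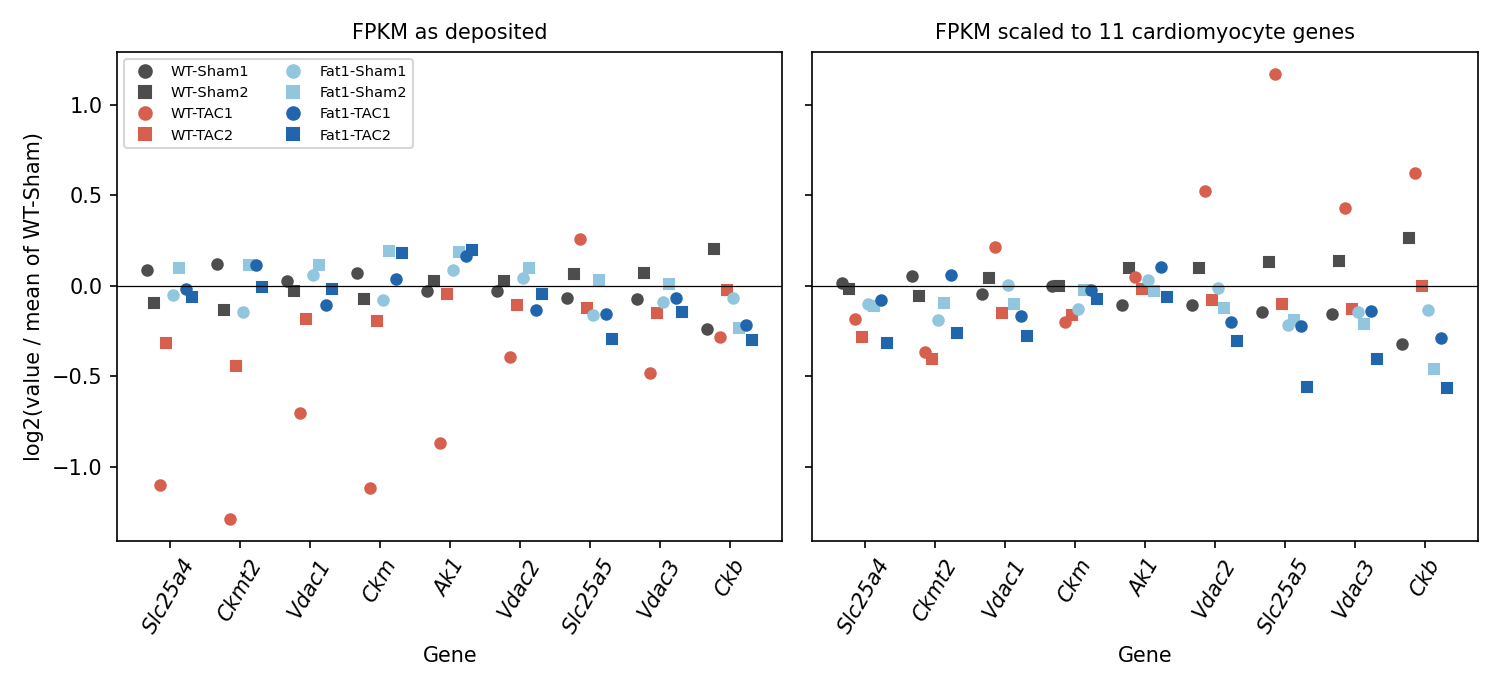
Each library's level relative to the mean of the WT-Sham libraries (log2), for FPKM as deposited on the left and for FPKM scaled to 11 cardiomyocyte genes on the right, with colours for groups, circles for library 1 and squares for library 2. WT-TAC1 lies lowest for 7 genes on the left, whereas on the right it lies above WT-TAC2 for 8 of the 9, Ckm being the exception at 434 against 446.

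The comparison of Fat1-TAC with WT-TAC asks whether the fat-1 genotype changed these genes under pressure overload, and it shares the WT-TAC libraries with the comparison above. Means were higher in Fat1-TAC for 7 of the 9 genes in FPKM, all but Slc25a5 and Ckb, for 9 after median-of-ratios scaling and for 4 after scaling to the cardiomyocyte markers. Both Fat1-TAC libraries lay above both WT-TAC libraries for 6 of the 9, Ckm, Ckmt2, Slc25a4, Vdac1, Vdac3 and Ak1, and below them for Slc25a5, against a background of 9.33% of tested genes higher and 57.1% lower without overlap. None of the 9 passed the adjusted cutoff, where 0.0346% of genes were called higher and 1.39% lower. By the unadjusted cutoff Ckmt2, Ckm and Ak1 were called higher, 3 of the 9, against a background of 1.72% higher and 23.5% lower. All 11 cardiomyocyte markers had higher means in FPKM, at a median log2 fold change of 0.60, and 4 of them were called higher by that cutoff.

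The log2 fold changes were 0.92 for Ckmt2 (SE 0.29, unadjusted p = 0.0154, limma adjusted p = 0.163), 0.76 for Ckm (SE 0.29, unadjusted p = 0.0348, limma adjusted p = 0.166) and 0.64 for Ak1 (SE 0.26, unadjusted p = 0.0413, limma adjusted p = 0.167). They were 0.67 for Slc25a4, 0.38 for Vdac1, 0.21 for Vdac3, 0.16 for Vdac2, -0.10 for Ckb and -0.29 for Slc25a5, and the median over all tested genes was -0.40. Median-of-ratios scaling changed the unadjusted calls over all genes from 248 higher and 3389 lower to 1284 higher and 1108 lower, quantile normalization to 1382 higher and 816 lower, and the former called 5 of the 9. Without WT-TAC1 no gene of the 9 reached the fold cutoff. The values were then 0.49 for Ckmt2, 0.30 for Ckm, 0.28 for Slc25a4 and 0.23 for Ak1. Without WT-TAC2 they were 1.34, 1.22, 1.06 and 1.05. Without Fat1-TAC1 none was called, with 0.86 for Ckmt2, and without any 1 of the remaining 5 libraries Ckmt2 alone was called. Scaled to cardiomyocyte markers, the log2 fold changes were 0.28 for Ckmt2, 0.13 for Ckm, 0.04 for Slc25a4 and 0.01 for Ak1. By the unadjusted rule 1 of the 9 was then called, Slc25a5, lower at -0.93. Over all 14442 tested genes 5327 were called lower and 6 higher by that rule under this scaling.

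The comparison of Fat1-TAC with Fat1-Sham asks the same of pressure overload in fat-1 hearts. Between Fat1-TAC and Fat1-Sham the log2 fold changes lay between -0.16, for Slc25a5 and Vdac2, and 0.07, for Ckmt2, none of the 9 was called by either rule, and the background was 0.00692% higher and 0% lower by the adjusted rule and 1.33% and 0.533% by the unadjusted one. The 95% interval was -0.62 to 0.75 for Ckmt2, -0.64 to 0.74 for Ckm and -0.76 to 0.63 for Slc25a4. The samples therefore do not show that TAC left these genes unchanged in fat-1 hearts. The fit shares 1 estimate of the spread over all 4 groups, so the gap between WT-TAC1 and WT-TAC2 also enters these intervals. Vdac1 and Vdac2 were lower in both Fat1-TAC libraries than in both Fat1-Sham libraries, 2 of the 9 genes, against a background of 21.5% lower and 26.8% higher without overlap.

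Fat1-Sham against WT-Sham compares the genotypes without pressure overload. Fat1-Sham differed from WT-Sham by -0.13 for Ckb to 0.14 for Ak1 (log2 fold change), none of the 9 was called, and the background was 0% in both directions by the adjusted rule and 0.201% higher and 0.692% lower by the unadjusted one. Vdac1, Vdac2 and Ak1 were higher in both Fat1-Sham libraries, 3 of the 9, against a background of 15.5%. The 95% intervals reached from -0.63 to 0.75 for Ckm and from -0.69 to 0.67 for Ckmt2, so the samples do not show that the genotypes are equal.

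The interaction of genotype and surgery tests whether the response to TAC differed between WT and fat-1 hearts. None of the 9 was called by either rule, where 0.00692% of tested genes were called higher and 0.0623% lower by the adjusted rule and 0.609% and 6.38% by the unadjusted one. The unadjusted calls over all genes were 88 higher and 921 lower in FPKM, 304 and 386 after median-of-ratios scaling and 432 and 290 after quantile normalization. The interaction was 0.93 for Ckmt2 (log2, SE 0.41, unadjusted p = 0.0578, limma adjusted p = 0.495), 0.71 for Ckm (limma adjusted p = 0.495) and 0.64 for Slc25a4 (limma adjusted p = 0.495). A call in WT and none in fat-1 hearts therefore does not show a difference between them. Without WT-TAC1 the interaction was 0.50 for Ckmt2, 0.25 for Ckm and 0.25 for Slc25a4, and without WT-TAC2 1.35, 1.17 and 1.04. In the same order it was 0.43, 0.21 and 0.14 after scaling to the cardiomyocyte markers and 1.36, 1.14 and 1.08 after median-of-ratios scaling.

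**Figure D3:**
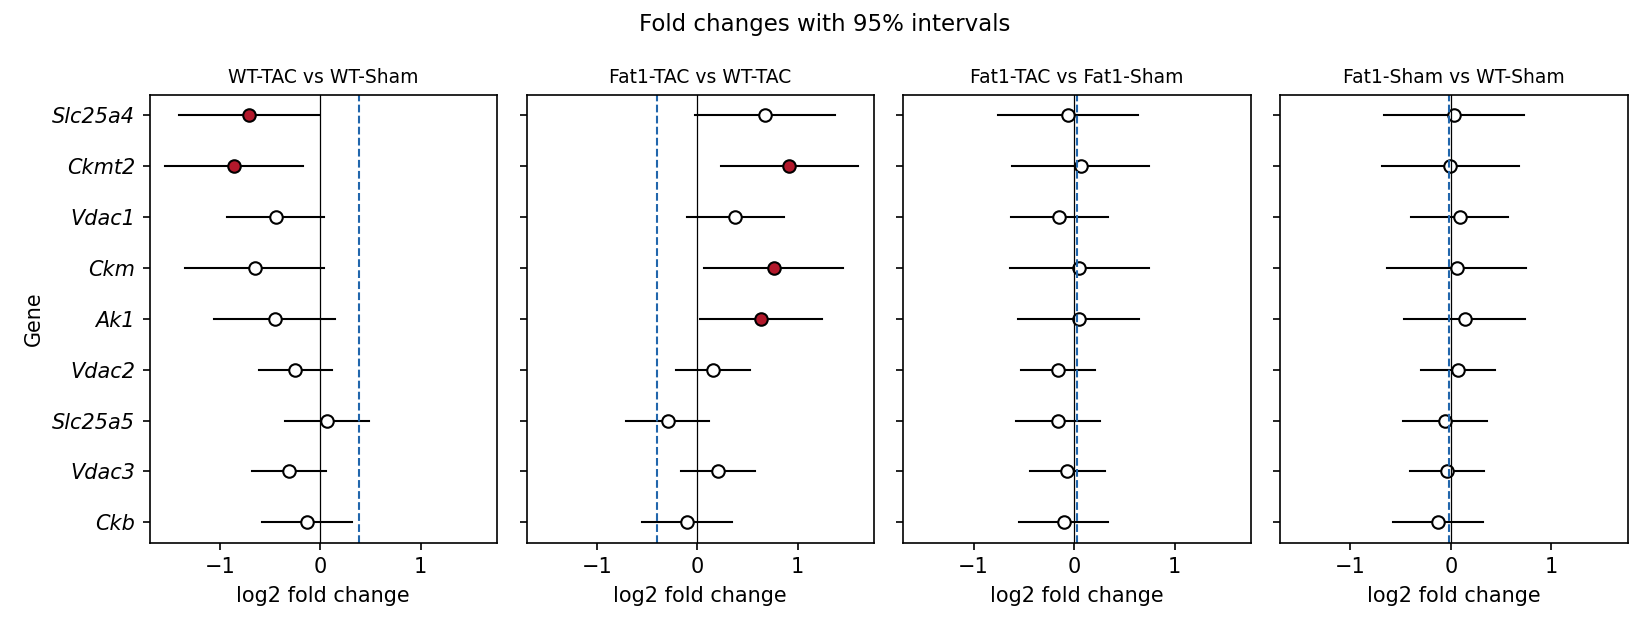
Log2 fold changes of the 9 genes (x axis) in the 4 comparisons with 95% intervals from limma, filled where the unadjusted p was under 0.05 and the fold over 1.5, with the median of all tested genes as a dashed line. The filled genes are Slc25a4 and Ckmt2 in WT-TAC vs WT-Sham and Ckmt2, Ckm and Ak1 in Fat1-TAC vs WT-TAC.

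Ratios between isoforms of one library do not depend on the scaling between libraries. The share of Ckb in the cytosolic creatine kinase mRNA (Ckm + Ckb) was 6.40% and 9.29% in WT-Sham, 13.1% and 8.70% in WT-TAC, 7.85% and 5.93% in Fat1-Sham and 6.63% and 5.72% in Fat1-TAC. Only WT-TAC1 lay outside the range of the sham libraries on the upper side. The share of Slc25a5 in both translocases was 6.39% and 7.80% in WT-Sham, 16.3% and 8.0% in WT-TAC, 6.58% and 6.75% in Fat1-Sham and 6.45% and 6.06% in Fat1-TAC. Again WT-TAC1 was far above the others, and WT-TAC2 was next, close to WT-Sham2.

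The share of Vdac1 among the 3 channels was 64.8% and 62.6% in WT-Sham, 59.0% and 62.6% in WT-TAC, 64.4% and 64.3% in Fat1-Sham and 63.9% and 64.5% in Fat1-TAC. WT-TAC1 was the lowest library, and the other 7 lay within a narrow range. The ratio of Ckmt2 to Ckm (log2) was 1.08 and 0.97 in WT-Sham, 0.86 and 0.78 in WT-TAC, 0.97 and 0.95 in Fat1-Sham and 1.11 and 0.84 in Fat1-TAC. Both WT-TAC libraries lay below both WT-Sham libraries here, and WT-TAC2 was the lowest of all 8.

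Over the 4 TAC and 4 sham libraries these values differed by 1.17 percentage points for Ckb (exact permutation test, two-sided, p = 0.6), 2.33 percentage points for Slc25a5 (exact p = 0.6), -1.53 percentage points for Vdac1 (exact p = 0.314) and -0.10 for Ckmt2 per Ckm (log2, exact p = 0.314). The smallest p this design allows is 0.0286, and adjusted over the 4 values each p was 0.6. With 2 libraries against 2 the smallest p is 0.333. That p was reached in Fat1-TAC vs WT-TAC for the shares of Ckb, Slc25a5 and Vdac1 (exact p = 0.333), with differences of -4.74, -5.92 and 3.39 percentage points. It was also reached in WT-TAC vs WT-Sham for the share of Slc25a5, with 5.07 percentage points, and for Ckmt2 per Ckm, with -0.20 (exact p = 0.333). In Fat1-TAC vs Fat1-Sham the share of Slc25a5 reached it in the other direction, with -0.41 percentage points, and in Fat1-Sham vs WT-Sham Ckmt2 per Ckm did, with -0.07 (exact p = 0.333). Without WT-TAC1 the TAC minus sham difference was -0.351 percentage points for Ckb, -0.0475 for Slc25a5 and -0.354 for Vdac1. Without Fat1-TAC1 that of Ckmt2 per Ckm was -0.17, at the smallest p the design then allows (exact p = 0.0286), and without the others it lay between -0.11 and -0.06.

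**Figure D4:**
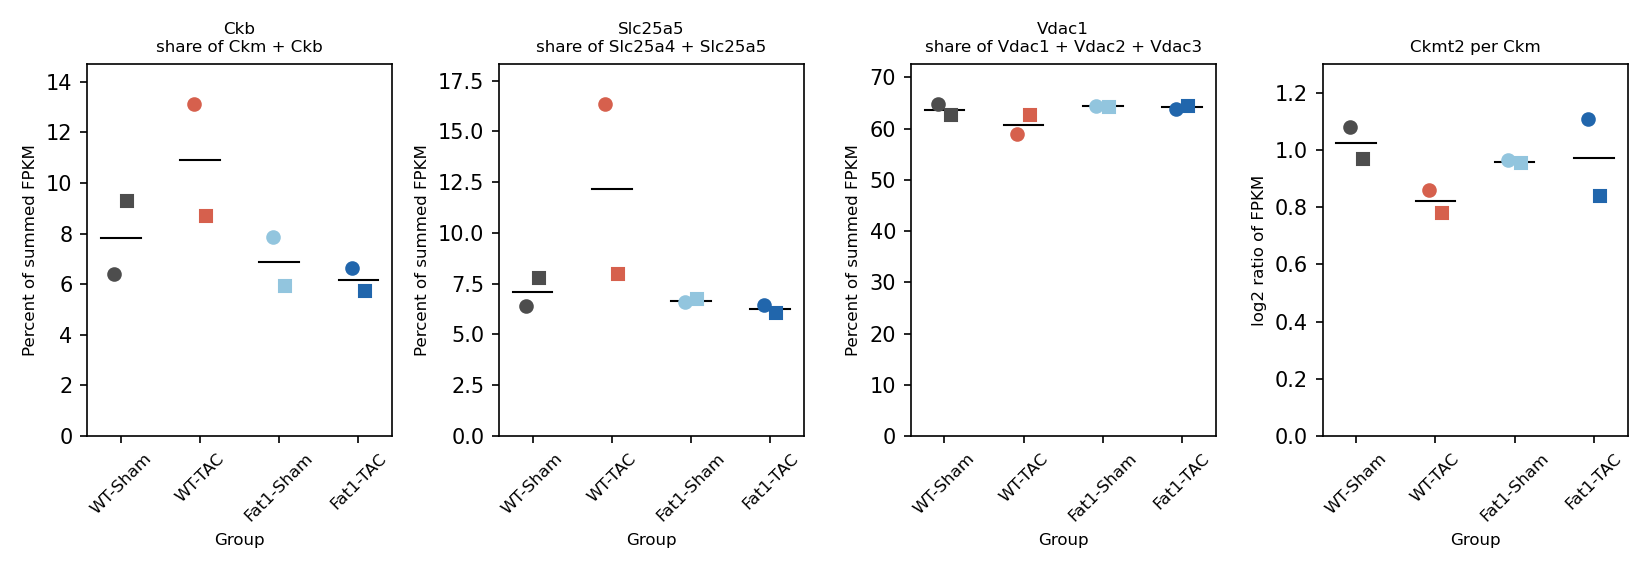
Share of Ckb, Slc25a5 and Vdac1 in the summed FPKM of their isoforms (percent, axis from 0) and the log2 ratio of Ckmt2 to Ckm, by group, with circles for library 1, squares for library 2 and lines for the mean of 2 libraries. WT-TAC1 stands apart at 13.1% for Ckb and 16.3% for Slc25a5.

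The 3 genes whose pattern over the 8 libraries was most like that of Ckm, among 6904 genes with a mean of 10 FPKM or more, were the tropomyosin Tpm1 (Pearson r = 0.989 of log2(FPKM + 1)), the insulin receptor adaptor Grb14 (0.989) and the enoyl reductase Tecr (0.989). Those most like Slc25a4 were Ndufaf1, an assembly factor of complex I, and the respiratory chain subunits Ndufb7 and Uqcrq (r = 0.998, 0.996 and 0.996). Among those most like Ckb were Clu, the secreted chaperone clusterin (0.968), and the secreted protease Htra3 (0.965). Without WT-TAC1 r was between 0.878 and 0.890 for the genes like Ckm, between 0.960 and 0.988 for those like Slc25a4 and between 0.960 and 0.980 for those like Ckb. Within the 9 genes, r was 0.97 between Ckm and Ckmt2 and 0.09 between Ckm and Ckb, and 0.83 and -0.74 without WT-TAC1. The points are libraries that share depth and tissue makeup, and these values are descriptions.

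The wider pathway was described by 9 lists with 58 genes, of which 56 were listed and 50 passed the filter. In WT-TAC vs WT-Sham, 6 of the 50 were called higher and 3 lower by the unadjusted rule, where 22.7% and 1.11% of all tested genes were, and 0 by the adjusted one, and the median was -0.14 against 0.39 for all genes. In Fat1-TAC vs WT-TAC, 3 were called higher and 8 lower by the unadjusted rule, where 1.72% and 23.5% of all tested genes were, and 2 lower by the adjusted one, where 1.39% were, and the median was 0.27 against -0.40 for all genes. These counts include Ak7, which passed the filter through the WT-TAC libraries alone, so that its calls are no test. In Fat1-TAC vs Fat1-Sham 1 was called higher, where 1.33% of all genes were, and in Fat1-Sham vs WT-Sham 0 by either rule. In the interaction 1 was called higher and 5 lower by the unadjusted rule, where 0.609% and 6.38% of all tested genes were, and 0 by the adjusted one.

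The ATP synthase, which makes the ATP that the translocases export, had 16 tested genes. In FPKM 15 of them had lower means after TAC in WT hearts, at a median log2 fold change of -0.42, but 6 had after scaling to the cardiomyocyte markers, at a median of 0.05. By the unadjusted rule 3 were called lower in FPKM, Atp5g1 at -0.87, Atp5j2 at -0.68 and Atp5j at -0.65. Without WT-TAC1 they were at -0.49, -0.43 and -0.38, under the fold cutoff, and without WT-Sham1 at -0.77, -0.60 and -0.54, past the p cutoff in none. In Fat1-TAC vs WT-TAC all 16 had higher means in FPKM with a median of 0.43, against 2 with a median of -0.20 after that scaling, and Atp5g1 (0.70) and Atp5j2 (0.71) were called higher. Without WT-TAC1 these were 0.33 and 0.45 and without Fat1-TAC1 0.67 and 0.60, neither called, Atp5g1 was at 1.08 without WT-TAC2, and at 0.73 without Fat1-TAC2 it was not called. Atp5g1, a gene for the membrane ring subunit, was at 407 and 357 FPKM in WT-Sham, 160.1 and 271 FPKM in WT-TAC, 359 and 396 FPKM in Fat1-Sham and 347 and 333 FPKM in Fat1-TAC. Both WT-TAC libraries were the lowest of all, and scaled to cardiomyocyte markers the log2 fold change of Atp5g1 was -0.40 and was no longer called. Atp5j2 was the pathway gene called higher in the interaction, at 0.88 (unadjusted p = 0.0212, limma adjusted p = 0.495), and was still called without WT-TAC1, at 0.62, but this call was lost in 5 of 19 alternatives.

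Ckmt1, the ubiquitous mitochondrial creatine kinase of brain and epithelia, was 1 of the 2 remaining creatine kinase and translocase genes, and it rested on few fragments. It was at 0.944 and 1.36 FPKM (12 and 26 fragments) in WT-Sham, 3.99 and 4.15 FPKM (71 and 67 fragments) in WT-TAC, 2.07 and 0.456 FPKM in Fat1-Sham and 0.358 and 0.675 FPKM (6 and 11 fragments) in Fat1-TAC. The 3 highest libraries, WT-TAC2, WT-TAC1 and Fat1-Sham1, were also the 3 with lung and airway markers above 1 FPKM in sum. The white adipocyte markers were highest in the same 3 libraries, at 1160, 836 and 502 FPKM in sum. Neither parallel was tested. Ckmt1 was called by the unadjusted rule at 1.24 in WT-TAC vs WT-Sham, -1.75 in Fat1-TAC vs WT-TAC and -1.73 in the interaction (limma adjusted p = 0.175, 0.109 and 0.495). The first was 1.27 without WT-TAC1 and was lost without WT-Sham1, at 1.10, and after quantile normalization, at 0.71, and the others were -1.77 and -1.75 without WT-TAC1. When the libraries were given limma's array weights, none of these calls of Ckmt1 held (unadjusted p = 0.204, 0.0783 and 0.107, limma). Ak7, an adenylate kinase of motile cilia, had the same 2 highest libraries, at 1.27 and 3.08 FPKM in WT-TAC1 and WT-TAC2 and at most 0.0707 FPKM elsewhere. Slc25a31, a testis translocase, was at most at 0.366 FPKM.

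Among the remaining adenylate kinases, Ak4, which sits in the mitochondrial matrix, was called in Fat1-TAC vs WT-TAC, at 0.65, with 10.5 and 17.1 FPKM in WT-TAC and 20.6 and 22.8 FPKM in Fat1-TAC. It was 0.98 without WT-TAC2, and the call was lost without WT-TAC1, at 0.33, Fat1-TAC1, at 0.73, or Fat1-TAC2, at 0.58. Scaled by the median of ratios it was called at 1.09 and after quantile normalization at 1.17, but scaled to the cardiomyocyte markers it was at 0.06. Of the 9 tested genes of AMP deaminases and the AMP-activated kinase, Ampd2, a deaminase of non-muscle tissues, was at 3.87 and 5.72 FPKM in WT-Sham, 15.5 and 9.11 FPKM in WT-TAC, 4.87 and 3.19 FPKM in Fat1-Sham and 5.47 and 5.05 FPKM in Fat1-TAC. It was called at 1.17 and -1.04 in WT-TAC vs WT-Sham and Fat1-TAC vs WT-TAC, and Prkag2, a regulatory subunit of the kinase, at -0.98 in the latter. Without WT-TAC1 the values were 0.82 and -0.69 for Ampd2 and -1.04 for Prkag2, all still called, whereas the calls of Ampd2 were lost without WT-Sham1, at 0.94, and without Fat1-TAC2, at -0.996. Scaled by the median of ratios, Prkag2 was at -0.53 (unadjusted p = 0.0766 in limma) and no longer called, and Ampd2 was called at 0.75 and -0.62. After quantile normalization Prkag2 was at -0.54 and Ampd2 at -0.54 in Fat1-TAC vs WT-TAC, neither called. With array weights the calls of Ampd2 (unadjusted p = 0.0588 and 0.0768, limma) and of Prkag2 (unadjusted p = 0.0789, limma) were lost. Ampd1, the skeletal muscle deaminase, was chosen after its values were seen and was not tested, since it was at 4.31 FPKM in WT-TAC1 and at 0 in 6 of the other libraries, and its level moved with the fast skeletal muscle markers.

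Of the 5 tested carriers of phosphate and ATP-Mg, Slc25a23 at -0.61 and Slc25a24 at -0.88 were called lower in Fat1-TAC vs WT-TAC, where the median of all genes was -0.40. Scaled by the median of ratios they were at -0.15 (unadjusted p = 0.411 in limma) and -0.47, and after quantile normalization at -0.24 and -0.35, none of them called. Without WT-TAC1 Slc25a24 was still called at -0.66 and Slc25a23, at -0.52, was not, nor was it without Fat1-TAC1, at -0.54. Slc25a23 was also called in the interaction, at -0.69 (unadjusted p = 0.0417, limma adjusted p = 0.495), a call that was lost without WT-TAC1, at -0.597, and in 13 of 19 alternatives in all. Of the 4 partners of VDAC, Tspo, a cholesterol-binding protein of the outer membrane that macrophages express highly, was at 71.7 and 94.1 FPKM in WT-Sham, 147 and 130.0 FPKM in WT-TAC, 79.5 and 57.6 FPKM in Fat1-Sham and 56.2 and 73.7 FPKM in Fat1-TAC. Both WT-TAC libraries were above the rest. They were so too for the macrophage, fibroblast, white adipocyte, B and plasma cell, and lung and airway markers, and these parallels were not tested. Tspo was called at 0.74 in WT-TAC vs WT-Sham and -1.09 in Fat1-TAC vs WT-TAC. Without WT-TAC1 it was called at 0.66 and -1.002, and without WT-Sham1 the first was not called, at 0.55. Scaled by the median of ratios the first was 0.27 (unadjusted p = 0.228 in limma) and after quantile normalization 0.56, neither called, whereas the second was called at -0.62 and -0.87. With array weights both calls were lost (unadjusted p = 0.176 and 0.0543, limma). In the interaction Tspo was called at -0.82 (unadjusted p = 0.0391, limma adjusted p = 0.495), and that call was lost without WT-TAC1, at -0.73, and in 11 of 19 alternatives in all. The hexokinases Hk1 and Hk2 and the cyclophilin Ppif were not called.

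Creatine supply showed no call. The transporter Slc6a8, which brings creatine into the cell, was at 102 and 97.3 FPKM in WT-Sham, 66.2 and 109 FPKM in WT-TAC, 133 and 119 FPKM in Fat1-Sham and 110.5 and 132 FPKM in Fat1-TAC, with log2 fold changes of -0.23 in WT-TAC vs WT-Sham and 0.50 in Fat1-TAC vs WT-TAC. WT-TAC1 lay below all the others, and WT-TAC2 above both WT-Sham libraries. Gatm, the first enzyme of creatine synthesis, did not pass the filter. None of the 3 tested nucleoside diphosphate kinases was called, with Nme1 at 0.42 in the former and Nme2 at 0.57 in the latter comparison, and both lie in a readthrough gene and are uncertain.

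Among the ATP users of the cardiomyocyte, Myh7, the slow myosin heavy chain that rises in mouse hearts under load, was at 28.9 and 47.3 FPKM in WT-Sham, 50.7 and 89.0 FPKM in WT-TAC, 31.1 and 30.5 FPKM in Fat1-Sham and 76.0 and 119.6 FPKM in Fat1-TAC. All 4 TAC libraries were above all 4 sham libraries. Myh7 was called by the unadjusted rule at 0.85 in WT-TAC vs WT-Sham (unadjusted p = 0.0461, limma adjusted p = 0.181) and at 1.60 in Fat1-TAC vs Fat1-Sham (unadjusted p = 0.00246, limma adjusted p = 1.0). The first value was 1.24 without WT-TAC1, 0.45 without WT-TAC2, 0.50 without WT-Sham1 and 0.38 when scaled by the median of ratios, and its call was lost in 11 of 20 alternatives, whereas the second was called in all 20. The sarcoplasmic calcium pump Atp2a2 was not called, at -0.55 in WT-TAC vs WT-Sham.

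**Figure D5:**
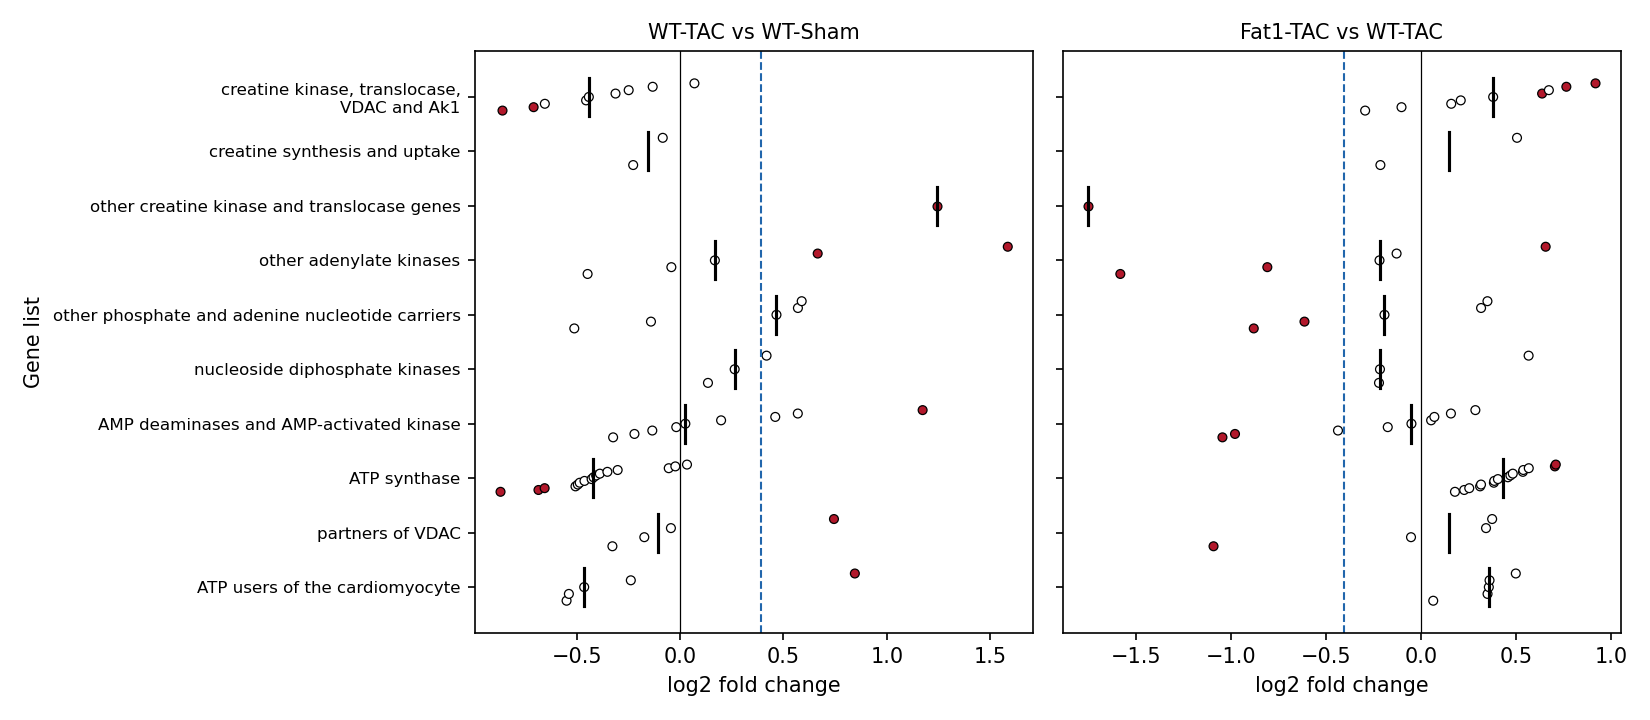
Log2 fold changes (x axis) of the 9 genes and of each pathway list in WT-TAC vs WT-Sham and Fat1-TAC vs WT-TAC, 1 point per tested gene, filled where the unadjusted p was under 0.05 and the fold over 1.5, with a bar at the list's median and a dashed line at the median of all tested genes. The calls drawn for Ak7 are no test, and the ATP synthase list lies at -0.42 and 0.43, on the same sides as the 9 genes at -0.44 and 0.38, and at 0.05 and -0.20 when scaled to the cardiomyocyte markers.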

How the data were processed

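The authors deposited 1 table of FPKM values for 25929 genes and 8 libraries. The submitters' processing notes name HISAT2 and the builds mm10 and GRCm38; the counting program and annotation are not given in the sources used here. Symbols matched 25852 Ensembl identifiers, 4 blank lines were removed, and coordinates and transcript lengths are those of GENCODE M21. Fragments were recovered for 99.996% of genes within 0.002 of a whole number. The filter kept genes that reached 1 FPKM in 2 libraries, and these were tested on log2(FPKM + 1) with limma 3.58.1 (R 4.3.3; trend, all 8 libraries, 4 group means), which was tested on simulated data. Ratios between isoforms were tested with exact permutation tests in Python 3.11.15. The 9 genes, the lists and the tests were chosen with earlier results of these data known. Named are the 9 genes, every pathway gene called by either rule or otherwise the one with the largest fold change of its list, the most abundant gene of each marker list with genes at 0, and the 3 genes most like Ckm, Ckb and Slc25a4. Some genes that this rule names are not reported here. Alternatives were other scalings, filters, a pseudocount of 0.1, other tests, the replicate block and leaving out each library.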

Additional observations from a re-analysis of the deposited data

Results flagged for a closer look

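In 3 of the pathway genes reported here, and in none of the 9 genes, the libraries of the genotypes separated in opposite directions after TAC. Both WT-TAC libraries lay on one side of both WT-Sham libraries while both Fat1-TAC libraries lay on the other side of both Fat1-Sham libraries. The interaction of genotype and surgery (log2) was 0.60 for Atp5h, 0.88 for Atp5j2 and -0.85 for Prkag2, each with a limma adjusted p of 0.495, so the difference itself did not pass the adjusted test. Atp5h and Atp5j2 are ATP synthase subunits, and Prkag2 is a subunit of the AMP-activated kinase.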

How the results depend on the processing

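Depth did not limit these values, whereas 2 libraries a group did. Of 891 alternative log2 fold changes of the 9 genes, 841 kept their direction, and 17 of 45 results kept it in every alternative. The cause was not tested.

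Against 2 of the 9 genes called at unadjusted p in WT-TAC vs WT-Sham, 7 were called with median-of-ratios scaling (Slc25a4 not among them), 1 with quantile normalization, no filter or array weights, and 0 with cardiomyocyte scaling, only 2 groups or a per-gene test. Against 3 in Fat1-TAC vs WT-TAC, there were 5, 1 (cardiomyocyte scaling or per-gene test) and 0 (only 2 groups), and array weights called 1 in the interaction. Leaving out 1 library gave 0 to 5 by either rule in both comparisons and 0 to 4 in the interaction.

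Reversed in direction were, with median-of-ratios scaling, Ckmt2 0.031 and Vdac3 0.0013 (Fat1-Sham vs WT-Sham), Slc25a5 -0.41 (WT-TAC vs WT-Sham), Ak1 -0.0011 (Fat1-TAC vs Fat1-Sham), Ckb 0.35 and Slc25a5 0.17 (Fat1-TAC vs WT-TAC), and Slc25a5 0.20 (interaction). With cardiomyocyte scaling they were Ckm -0.076, Slc25a4 -0.11, Vdac1 -0.047 and Vdac2 -0.063 (Fat1-Sham vs WT-Sham), Ckb 0.33, Vdac1 0.033, Vdac2 0.23, Vdac3 0.16 and Ak1 0.019 (WT-TAC vs WT-Sham), Vdac1 -0.25, Vdac2 -0.47 and Vdac3 -0.42 (Fat1-TAC vs WT-TAC), and Ckb -0.46, Vdac1 -0.21, Vdac2 -0.41 and Vdac3 -0.25 (interaction). Scaling without mitochondrially encoded genes gave Slc25a5 -0.023 (WT-TAC vs WT-Sham) and Ckb 0.0026 (Fat1-TAC vs WT-TAC), and quantile normalization Ckb 0.29 in the latter. In fat-1 libraries only, the TAC minus sham difference was -0.72 points for the Ckb share, -0.41 for the Slc25a5 share and 0.014 for Ckmt2 per Ckm.

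Leaving out 1 library gave, for Fat1-Sham vs WT-Sham, -0.35 to 0.084 (Ckb), -0.078 to 0.19 (Ckm), -0.14 to 0.12 (Ckmt2), -0.064 to 0.12 (Slc25a4), -0.16 to 0.034 (Slc25a5) and -0.11 to 0.036 (Vdac3). For Fat1-TAC vs Fat1-Sham it gave -0.0061 to 0.10 (Ak1), -0.082 to 0.19 (Ckm), -0.063 to 0.20 (Ckmt2) and -0.14 to 0.014 (Slc25a4). For WT-TAC vs WT-Sham it gave -0.35 to 0.082 (Ckb) and -0.12 to 0.26 (Slc25a5), for Fat1-TAC vs WT-TAC -0.23 to 0.025 (Ckb), and for the interaction -0.19 to 0.24 (Ckb) and -0.054 to 0.23 (Vdac2). Over TAC and sham it gave -0.35 to 2.12 points (Ckb share), -0.0475 to 3.38 points (Slc25a5 share) and -0.17 to -0.057 (Ckmt2 per Ckm).

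Same-numbered libraries did not deviate together (r across genes -0.11 in Fat1-Sham vs WT-Sham, -0.05 in WT-TAC vs WT-Sham, -0.14 in Fat1-TAC vs Fat1-Sham and -0.04 in Fat1-TAC vs WT-TAC), and the replicate block left 2 and 3 genes called in WT-TAC vs WT-Sham and Fat1-TAC vs WT-TAC. The crossed block, chosen after seeing the data, called 0 in the comparisons of r under -0.1.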
